A study of Mus musculus with 9 samples.

Results

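The ribosome biogenesis genes described here are 42 genes named for the nucleolar proteins that make and assemble ribosomes, with Myc added as a transcription factor of that programme. They were chosen with earlier results of these data known. Their counts below, set beside those over all genes, are therefore descriptions and not a test on an independent list. Of the 42, 39 had an array feature (a probe set with 1 value per array) that the platform annotation ties to their symbol alone, among 22180 genes tested. Fbl, Tsr1 and Mrto4 lie on features that carry several symbols and were not analysed here. Expression was measured in TAMH cells, an immortalised hepatocyte line from mice that carry a transforming growth factor alpha transgene, so all results come from 1 line. The groups were cells given the herbicide diquat (DQ) at 18 µM for 9 h, cells given the herbicide paraquat (PQ) at 126 µM for 9 h, and control cells (CON) kept in medium alone for 9 h, with 3 arrays each. All groups shared a medium with dexamethasone, nicotinamide, gentamicin, insulin, transferrin and selenium, and were treated at confluence. The doses of the herbicides differ, so diquat and paraquat are set side by side as given. No label states that the dishes of a group were independent cultures. The p-values therefore reflect only how far these arrays vary among themselves, and that variation may be technical.

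Ribosomes are made in the nucleolus, where RNA polymerase I transcribes a long precursor of the ribosomal RNAs. Small nucleolar ribonucleoproteins (snoRNPs) guide its chemical modification, large complexes fold and cut it, and assembly factors then build and export the small and the large subunit. Most of these factors are needed in every growing cell, and many of their genes are known targets of MYC, which binds the E-box sequence in their promoters.

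Values are log2 expression values and ran between 3.89 and 13.19 over the 34472 features. Differences are log2 fold changes (log2FC) of herbicide minus control from limma, with its standard error (SE), and a gene was called where its Benjamini-Hochberg adjusted p over all 22180 genes was under 0.05. Array 3 of the diquat group stood apart from the others: its root-mean-square difference from its group mates over all genes was 0.134, against 0.0714 to 0.115 for the other arrays. Hepatocyte markers were present, with albumin (Alb) at a mean of 12.73 in each group, and of 9 such markers measured 5 fell with diquat and 4 with paraquat. Over all genes, 4.13% were called higher and 2.89% lower with diquat, and 2.33% and 2.24% with paraquat. Cps1, a urea cycle enzyme, fell by 0.75 with diquat and by 0.80 with paraquat. Averaged over the 9 markers, the log2 difference to the controls lay between -0.31 and -0.27 on the diquat arrays, between -0.38 and -0.20 on the paraquat arrays, and between -0.04 and 0.02 on the control arrays. Defining macrophage and endothelial genes were dim, with Adgre1 at means of 5.55, 5.54 and 5.53 and Pecam1 at 5.82, 5.87 and 5.91 in diquat, paraquat and control cells. Of the other cell type markers, 1 of 5 macrophage genes rose with diquat (Cd68, also expressed outside macrophages) and 2 of 4 cholangiocyte genes fell with diquat (Krt7 and Krt19), calls that for Cd68 and Krt19 were lost in 7 and 8 of 9 fits leaving out 1 array, while 0 of 7 stellate cell and fibroblast genes and 0 of 5 endothelial genes passed with either herbicide. The part of these markers in the results below was not tested.

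Some of the ribosome biogenesis genes rose with each herbicide, by small amounts, and most did not pass the test. With diquat, 14 of 39 members rose, 0 fell and 25 were not called, against 7.02% of all genes tested called in either direction, 4.13% higher and 2.89% lower. With paraquat, 10 of 39 rose, 0 fell and 29 were not called, against 4.57% called in either direction, 2.33% higher and 2.24% lower. Over all genes the split of diquat calls depended on scaling: 917 higher and 641 lower as deposited, 1079 and 300 with array medians set equal, and 924 and 927 after quantile normalization. Among the 7784 genes with a mean value at least that of the lowest member, a background added after the data were seen, 9.82% were called higher with diquat and 5.78% with paraquat. The log2FC was above 0 for all 39 members with each herbicide, including members that did not pass the test, and remained so after centring and after quantile normalization. It was above 0 for 41.2% of all genes with diquat and 47.6% with paraquat, and for 56.5% and 46.8% of the 7784 genes. The median log2FC was 0.15 with diquat (range 0.04 to 0.38) and 0.14 with paraquat (range 0.01 to 0.41), while the medians over all genes were -0.02 and -0.00. By the feature kept for each gene, no member reached a change of 1.5-fold: the highest were 1.30-fold with diquat and 1.33-fold with paraquat, both for Myc. Other features of Ppan (with each herbicide) and of Nop56 (with diquat) had a higher log2FC than Myc, given below. Both comparisons use the same 3 control arrays, so their results are not independent of each other. A bulk array cannot tell more RNA per cell from a change in the mix of cells.

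There were 8 members called with both herbicides: Myc, Polr1a, Mybbp1a, Gnl3, Wdr43, Utp4, Utp15 and Nop2. Over all genes, 2% were called higher with both. Another 6 members were called with diquat alone (Npm1, Wdr75, Heatr1, Rrp12, Wdr12 and Noc3l) and 2 with paraquat alone (Rrp9 and Noc2l), and 23 were called with neither. A call with 1 herbicide and not the other does not show that they differ, and no member passed the test between them. Every diquat array lay above every control in 31 of 39 members, against 10.1% of all genes (21.3% in either direction), and every paraquat array did so in 28, against 9.05% (19.4% in either direction). An unadjusted p under 0.05 was found in 27 members with each herbicide, against 21.6% of all genes with diquat and 15% with paraquat. These shares were higher among the 7784 brighter genes, where 2880 had such a p with diquat and 2358 with paraquat. In 1696 of the 7784 every diquat array lay above every control, and in 1358 every paraquat array did. In 24 of 39 members every diquat and every paraquat array lay above every control array, against 6.07% of all genes and 14.1% of the 7784 brighter genes. In 4 members (Nolc1, Utp20, Bysl and Rrp1b) both treated groups overlapped the controls.

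**Figure D1:**
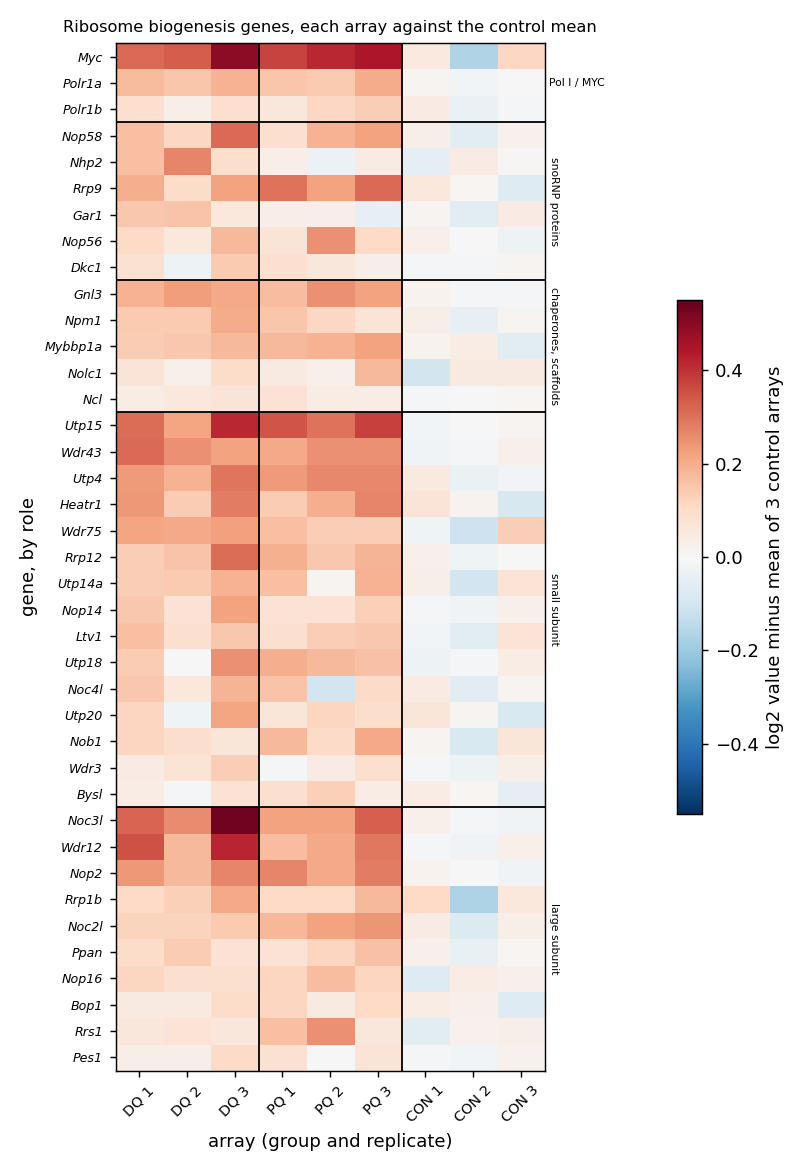
Heat map of the 39 measured members (rows, ordered by role) on the 9 arrays (columns: DQ, diquat; PQ, paraquat; CON, control), coloured by the log2 value minus the mean of the 3 control arrays. The diquat and paraquat columns are mostly red, darkest for Myc and Noc3l on the third diquat array, and the control columns are pale.

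Promoters of the members were searched for the E-box CACGTG, which reads the same on both strands and was counted once, in RefSeq windows from 250 bases before to 50 bases after each gene's start (mouse build GRCm38.p6). Windows were found for 36 of the 42 members, and 9 of the 36 genes (25%) held the motif, against 8.1% of all 27025 genes and 8.9% of the 17491 protein-coding genes in the table. Member windows had a median GC content of 59.5%, against 56.3% for protein-coding genes, 52.7% for all windows and 58.5% for cytosolic and for mitochondrial ribosomal protein genes. Other small subunit processome factors held it in 6 of 28 genes, other large subunit factors in 6 of 39, cytosolic ribosomal proteins in 6 of 58 (10.3%) and mitochondrial ribosomal proteins in 5 of 68 (7.4%). It was found in 4 of 13 members called with either herbicide and in 4 of 21 called with neither. The windows of these sets differed in median GC content, at 62.8% and 56.7%. A match describes these letters and is not evidence of binding.

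Of the 8 members called with both herbicides, 7 had a window and 4 of these held the motif: Wdr43, Utp4, Nop2 and Mybbp1a. Their windows are printed to show where it lies, 5′ to 3′ along the gene, with the motif in capitals. It starts 18, 16 and 41 bases into the transcript in Wdr43, Utp4 and Mybbp1a, counting the start as 1, and at position -60 in Nop2. The windows are chr17:71615965-71616264, chr8:106893390-106893689, chr6:125131633-125131932 and chr11:72441077-72441376, all on the plus strand, in the order Wdr43, Utp4, Nop2 and Mybbp1a. Gnl3, Polr1a and Utp15, also called with both, did not hold these letters in their windows.
Wdr43: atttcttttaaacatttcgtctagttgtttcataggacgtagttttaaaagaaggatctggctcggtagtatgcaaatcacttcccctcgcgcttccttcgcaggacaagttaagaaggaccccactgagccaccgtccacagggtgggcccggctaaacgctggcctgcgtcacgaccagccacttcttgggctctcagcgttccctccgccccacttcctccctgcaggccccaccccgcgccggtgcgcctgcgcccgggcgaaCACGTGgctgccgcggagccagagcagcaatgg
Utp4: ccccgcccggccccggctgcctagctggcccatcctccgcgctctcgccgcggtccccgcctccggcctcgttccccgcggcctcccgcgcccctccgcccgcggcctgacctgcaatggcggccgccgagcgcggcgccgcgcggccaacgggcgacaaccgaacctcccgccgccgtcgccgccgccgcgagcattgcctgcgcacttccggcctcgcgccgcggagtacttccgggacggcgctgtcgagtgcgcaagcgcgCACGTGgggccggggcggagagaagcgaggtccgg
Nop2: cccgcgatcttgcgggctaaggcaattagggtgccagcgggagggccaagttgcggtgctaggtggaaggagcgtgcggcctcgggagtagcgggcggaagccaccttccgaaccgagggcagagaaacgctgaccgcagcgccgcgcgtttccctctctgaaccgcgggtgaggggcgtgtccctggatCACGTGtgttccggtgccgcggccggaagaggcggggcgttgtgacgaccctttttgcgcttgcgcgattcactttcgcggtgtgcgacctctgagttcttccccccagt
Mybbp1a: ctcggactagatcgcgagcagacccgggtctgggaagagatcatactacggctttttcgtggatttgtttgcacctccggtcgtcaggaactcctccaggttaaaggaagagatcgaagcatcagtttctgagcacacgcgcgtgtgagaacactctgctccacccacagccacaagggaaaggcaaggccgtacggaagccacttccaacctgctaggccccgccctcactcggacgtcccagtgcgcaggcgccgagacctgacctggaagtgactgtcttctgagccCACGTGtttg

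Transcription comes first in the pathway. Myc, the transcription factor, had log2 values of 10.68, 10.70 and 10.86 on the diquat arrays and 10.74, 10.78 and 10.81 on the paraquat arrays, against 10.42, 10.20 and 10.48 on the control arrays. All 6 treated arrays lay above all 3 controls, and control array 2 was the lowest of the 9. Its log2FC was 0.38 ± 0.07 (SE) with diquat (limma adjusted p = 0.0122) and 0.41 ± 0.07 (SE) with paraquat (adjusted p = 0.0101). Polr1a encodes the largest subunit of RNA polymerase I. It stood at 9.72, 9.70 and 9.74 with diquat and at 9.70, 9.69 and 9.75 with paraquat, against 9.56, 9.53 and 9.55 in controls. No treated array overlapped the controls, and the rise was 1.13-fold with diquat (adjusted p = 0.0128) and 1.12-fold with paraquat (adjusted p = 0.0187). Polr1b, the second largest subunit, had a log2FC of 0.07 ± 0.04 with diquat and 0.10 ± 0.04 with paraquat (SE), and neither passed.

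Proteins of the box C/D snoRNPs, which guide methylation of ribosomal RNA, and of the box H/ACA snoRNPs, which guide pseudouridylation, gave 0 calls of 6 with diquat in limma (5 at an unadjusted p under 0.05) and 1 of 6 with paraquat. The call was Rrp9, which binds the U3 snoRNA needed for the first cuts of the precursor. Over all genes, 4.13% were called higher with diquat and 2.33% with paraquat, and 21.6% had an unadjusted p under 0.05 with diquat. Rrp9 read 8.72, 8.62 and 8.74 with diquat and 8.82, 8.74 and 8.83 with paraquat, against 8.58, 8.53 and 8.45 in controls, so that all treated arrays lay above the controls. The change was 0.17 ± 0.05 with diquat (adjusted p = 0.0625) and 0.28 ± 0.05 with paraquat (SE; adjusted p = 0.00958). The box C/D core proteins Nop58 and Nop56 had log2FC of 0.20 and 0.12 with diquat and 0.17 and 0.14 with paraquat, above the controls on every treated array but short of the threshold. Dkc1, the pseudouridine synthase of the H/ACA particle, had log2FC of 0.07 and 0.06, not called.

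The H/ACA proteins Nhp2 and Gar1 had the lowest changes with paraquat among the 39 members. Nhp2 had 10.00, 10.10 and 9.93 with diquat and 9.87, 9.80 and 9.88 with paraquat, against 9.78, 9.88 and 9.84 in controls. Its diquat arrays lay above the controls and its paraquat arrays among them. Gar1 had 9.47, 9.48 and 9.38 with diquat and 9.36, 9.36 and 9.28 with paraquat, against 9.34, 9.26 and 9.37 in controls, with the same arrangement. The log2FC with diquat was 0.18 ± 0.05 for Nhp2 and 0.12 ± 0.04 for Gar1 (SE; adjusted p = 0.0637 and 0.156), and with paraquat 0.02 and 0.01. An unadjusted p under 0.05 between diquat and paraquat was found for these 2 of 39 members, a smaller share than the 10.7% of all genes, and neither passed after adjustment (adjusted p = 0.374 for Nhp2 and 0.449 for Gar1).

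Among nucleolar chaperones and scaffolds, 3 of 5 rose with diquat and 2 of 5 with paraquat. The shares of all genes called higher were 4.13% and 2.33%. Gnl3 encodes nucleostemin, a nucleolar GTP-binding protein linked to growth of stem and tumour cells. It read 9.99, 10.03 and 10.01 with diquat and 9.97, 10.05 and 10.02 with paraquat, against 9.82, 9.79 and 9.79 in controls, with every treated array above the controls. The rise was 1.16-fold with each herbicide (adjusted p = 0.0058 with diquat and 0.00648 with paraquat). Mybbp1a, a nucleolar protein that binds MYB and takes part in early processing, had 10.61, 10.62 and 10.65 with diquat and 10.65, 10.66 and 10.69 with paraquat, against 10.49, 10.51 and 10.41 in controls. Again no treated array fell among the controls, and the log2FC was 0.16 ± 0.04 with diquat and 0.20 ± 0.04 with paraquat (SE; adjusted p = 0.0328 and 0.0141). Npm1, nucleophosmin, was called with diquat (log2FC 0.16, adjusted p = 0.0327) and not with paraquat (0.11, adjusted p = 0.169).

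Nucleolin (Ncl), among the most abundant nucleolar proteins, had some of the lowest changes. It read 11.12, 11.14 and 11.15 with diquat and 11.16, 11.12 and 11.12 with paraquat, against 11.07, 11.08 and 11.09 in controls. Every treated array lay above every control, yet the shift was 0.06 with diquat and 0.05 with paraquat (± 0.03, SE), and neither passed (adjusted p = 0.342 and 0.524). Nolc1, a scaffold that shuttles between nucleolus and cytoplasm, had log2FC of 0.07 and 0.09, with overlapping groups.

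**Figure D2:**
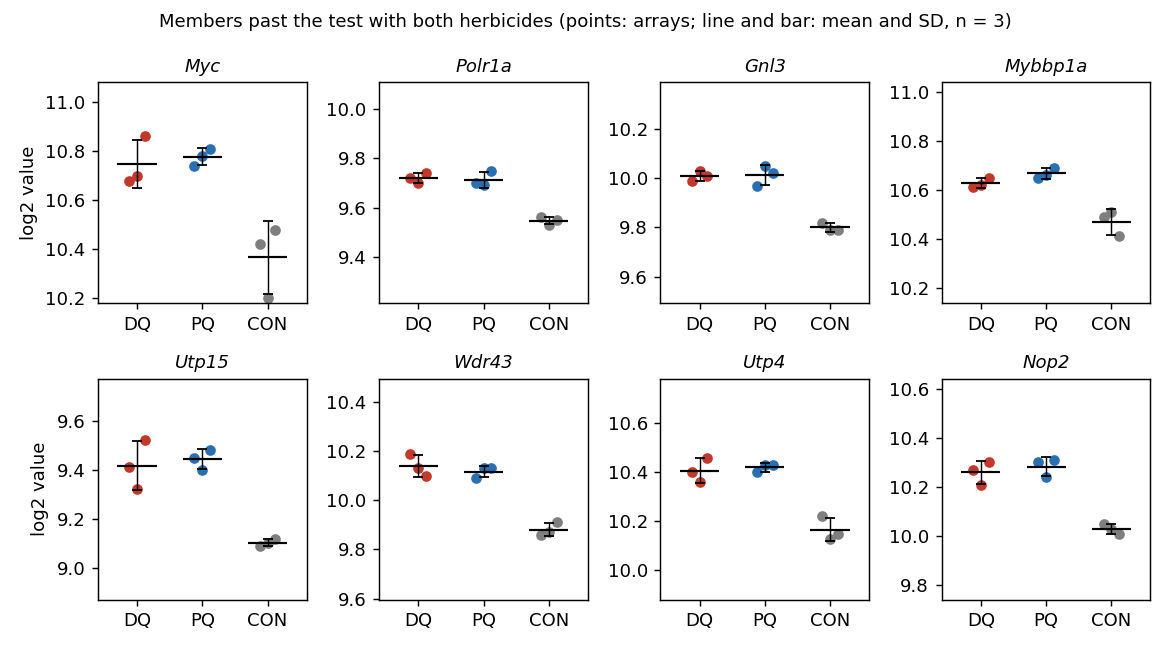
Log2 values of the 8 members called with both herbicides, 1 panel a gene with the same span on each vertical axis; points are arrays and the line and bar are the mean and SD of 3 arrays for diquat (DQ), paraquat (PQ) and control (CON). In each panel the treated points lie above the control points and the ranges of the diquat and paraquat points overlap.

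The small subunit is built inside the small subunit processome, a particle of U3 snoRNA and many UTP and NOP proteins on the nascent precursor. Of 15 measured members in this group, 6 rose with diquat and 3 with paraquat, against 4.13% and 2.33% of all genes called higher. Utp15, a subunit of the t-UTP complex that joins first, had 9.41, 9.32 and 9.52 with diquat and 9.45, 9.40 and 9.48 with paraquat, against 9.09, 9.10 and 9.12 in controls. The lowest treated array lay 0.20 above the highest control. The rise was 1.24-fold with diquat (log2FC 0.31 ± 0.05, SE, adjusted p = 0.00474) and 1.27-fold with paraquat (log2FC 0.34 ± 0.05, SE, adjusted p = 0.00367). Wdr43 and Utp4 belong to the same complex. Wdr43 read 10.19, 10.13 and 10.10 with diquat and 10.09, 10.13 and 10.13 with paraquat, against 9.86, 9.87 and 9.91 in controls. Utp4 read 10.40, 10.36 and 10.46 with diquat and 10.40, 10.43 and 10.43 with paraquat, against 10.22, 10.13 and 10.15 in controls. In both genes treated and control arrays did not overlap. Wdr43 had a log2FC of 0.26 with diquat and 0.24 with paraquat (adjusted p = 0.00231 and 0.00481), and Utp4 of 0.24 and 0.25 (adjusted p = 0.00578 and 0.00515).

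Heatr1 and Wdr75, also of the t-UTP complex, and Rrp12, which takes part in subunit export, were called with diquat only. Heatr1 had 9.76, 9.66 and 9.80 with diquat and 9.66, 9.72 and 9.79 with paraquat, against 9.59, 9.54 and 9.43 in controls. Wdr75 had 10.37, 10.36 and 10.38 with diquat and 10.32, 10.29 and 10.29 with paraquat, against 10.13, 10.04 and 10.29 in controls, so that 2 paraquat arrays only equalled control array 3. Rrp12 had 8.18, 8.20 and 8.35 with diquat and 8.24, 8.19 and 8.23 with paraquat, against 8.07, 8.02 and 8.04 in controls. Their log2FC with diquat was 0.22, 0.22 and 0.20 (adjusted p = 0.0415, 0.0453 and 0.0319) and with paraquat 0.20, 0.15 and 0.18 (adjusted p = 0.0732, 0.225 and 0.0689).

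The other 9 small subunit members did not pass with either herbicide: Nop14, Noc4l, Utp14a, Utp18, Utp20, Wdr3, Ltv1, Nob1 and Bysl. Bysl, a late factor of the small subunit, had the lowest change with diquat of all members. It read 8.41, 8.36 and 8.45 with diquat and 8.46, 8.50 and 8.41 with paraquat, against 8.41, 8.38 and 8.32 in controls, and the groups overlapped. Nob1, the endonuclease that makes the last cut of the small subunit RNA, had a log2FC of 0.09 with diquat and 0.16 with paraquat, and Ltv1, a factor removed late in maturation, 0.13 and 0.12.

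Large subunit assembly factors rose in 3 of 10 cases with diquat and in 2 of 10 with paraquat. Of all genes, 4.13% and 2.33% were called higher. Nop2, a methyltransferase of large subunit RNA and a marker of proliferating cells, had 10.27, 10.21 and 10.30 with diquat and 10.30, 10.24 and 10.31 with paraquat, against 10.05, 10.03 and 10.01 in controls. Treated and control arrays did not overlap, with a rise of 1.17-fold with diquat (adjusted p = 0.00557) and 1.19-fold with paraquat (adjusted p = 0.00391). The partners Noc3l and Noc2l, whose yeast counterparts escort early large subunit precursors, were each called once. Noc3l read 9.84, 9.78 and 10.05 with diquat and 9.74, 9.74 and 9.85 with paraquat, against 9.55, 9.51 and 9.50 in controls. Its log2FC was 0.37 ± 0.06 with diquat (SE, limma adjusted p = 0.00785) and 0.26 ± 0.06 with paraquat (adjusted p = 0.0553). By the feature kept for each gene, the diquat value was the highest among the 39 members after Myc. Noc2l read 9.85, 9.85 and 9.87 with diquat and 9.91, 9.95 and 9.97 with paraquat, against 9.77, 9.65 and 9.76 in controls. Its log2FC was 0.13 ± 0.04 with diquat (adjusted p = 0.0915) and 0.22 ± 0.04 with paraquat (SE; adjusted p = 0.0131).

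The PeBoW complex of Pes1, Bop1 and Wdr12 is needed for processing of large subunit RNA, and 1 of its 3 genes was called. Wdr12 had 7.70, 7.53 and 7.77 with diquat and 7.52, 7.56 and 7.64 with paraquat, against 7.34, 7.33 and 7.38 in controls. It rose 1.25-fold with diquat (adjusted p = 0.0113) and had a log2FC of 0.22 with paraquat (adjusted p = 0.0675). Pes1 and Bop1 had log2FC of 0.06 and 0.07 with diquat and of 0.05 and 0.09 with paraquat, and did not pass. Whether the 3 values differ from each other was not tested. Ppan, Rrs1, Nop16 and Rrp1b had log2FC between 0.07 and 0.16 with either herbicide and did not pass. For Ppan this depended on the feature used, as described below.

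**Figure D3:**
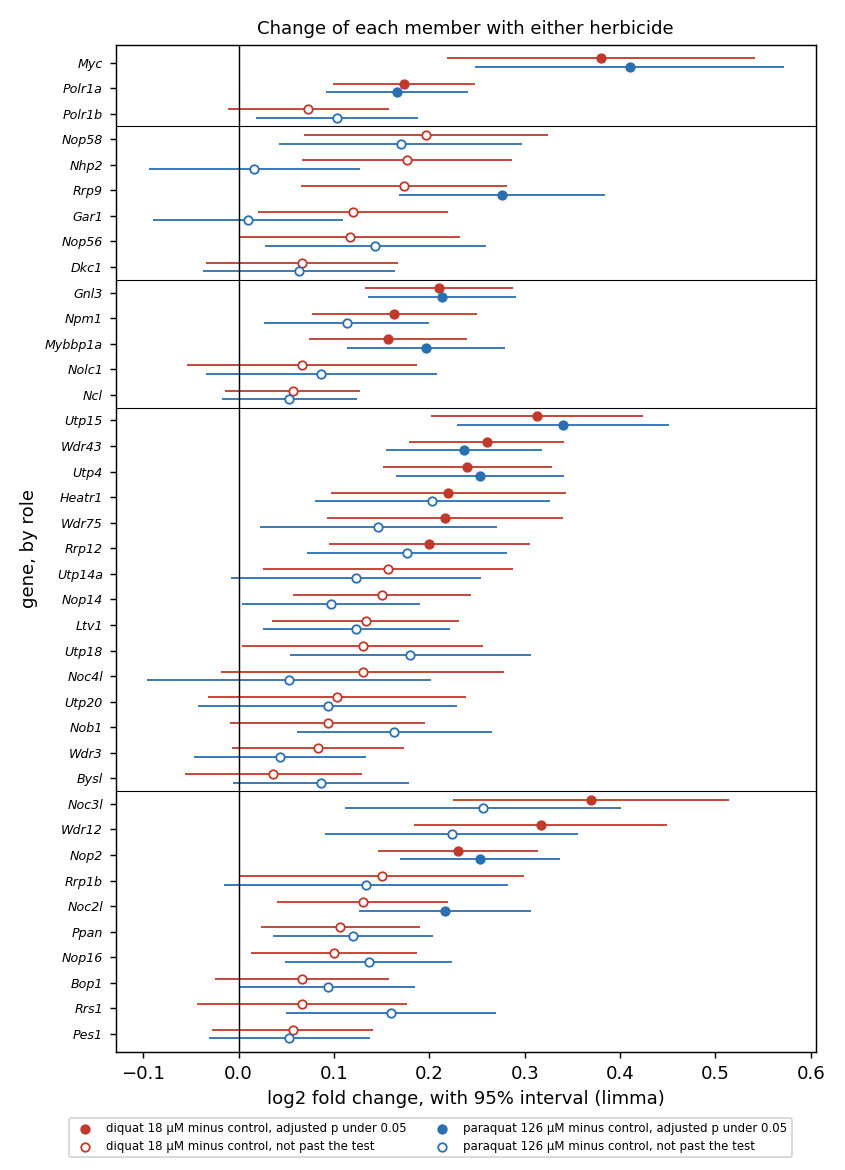
Log2 fold change of each of the 39 members against control with its 95% interval from limma, for diquat (red, upper) and paraquat (blue, lower), ordered by role; filled points passed the adjusted p of 0.05. All points lie right of 0, 14 of the diquat points and 10 of the paraquat points are filled, and the intervals of the 2 herbicides overlap for every gene.

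Each array was also given a score, the log2 difference to the mean of the controls averaged over the 39 members, which is described without a test. The score was 0.15, 0.12 and 0.20 on the diquat arrays and 0.15, 0.14 and 0.17 on the paraquat arrays, against 0.01, -0.03 and 0.01 on the control arrays. The 6 treated arrays all lay above the 3 controls. Group means were 0.16 ± 0.04 with diquat and 0.15 ± 0.02 with paraquat (SD, n = 3 each), with 0.02 as the SD of the controls, and the mean over all genes stayed between -0.01 and 0.00 on the 9 arrays. Diquat array 3, which stood apart over all genes, gave the highest score and was the highest of its group in 29 of 39 members. Without it the diquat score was 0.14 and 11 members were called, with 3.15% of all genes called higher. The calls of Heatr1, Mybbp1a, Npm1 and Wdr75 were lost in that fit, and Nhp2 was called. Leaving out Myc gave 0.15 for both herbicides.

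Small subunit members averaged 0.16 with diquat and 0.15 with paraquat, and large subunit members 0.16 and 0.16. Chaperones and scaffolds averaged 0.13 with each herbicide, and snoRNP proteins 0.14 and 0.11. The group of Myc and the polymerase genes reached 0.21 with diquat and 0.23 with paraquat. It holds only 3 genes, and Myc has the highest change of them.

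**Figure D4:**
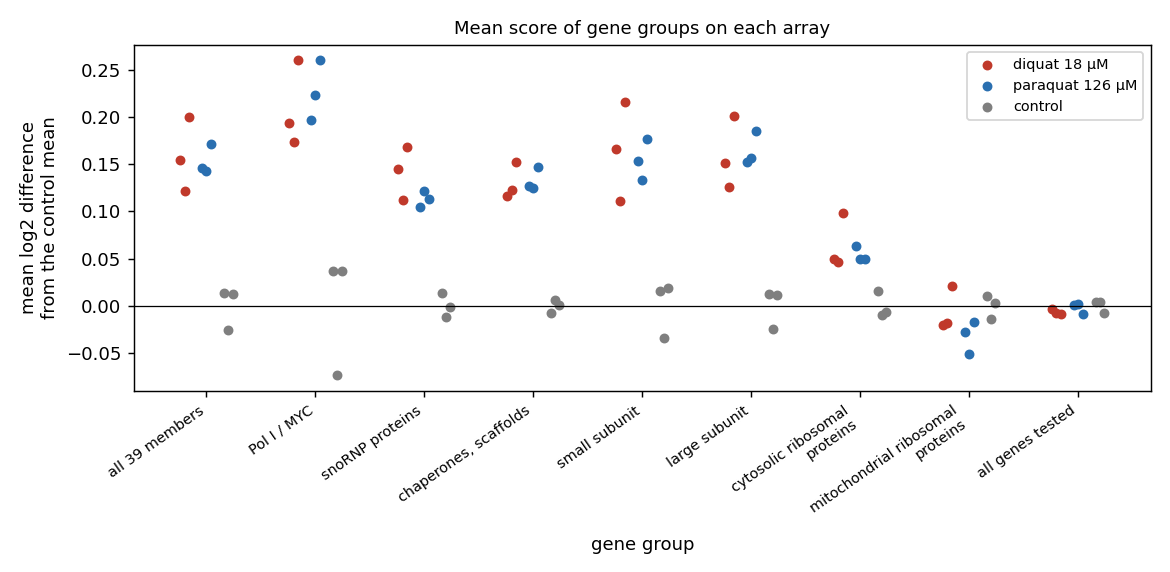
Mean log2 difference on each array to the control mean (vertical axis) for all 39 members, their 5 role groups, cytosolic and mitochondrial ribosomal proteins and all genes tested; each point is 1 array of diquat (red), paraquat (blue) or control (grey). Treated arrays lie above the controls for the members and each role group, by less for cytosolic ribosomal proteins, and all arrays lie near 0 for all genes.

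Between the herbicides, given at different doses, limma called 0 of 39 members for diquat minus paraquat, where 0% of all genes were called, and 2 members had an unadjusted p under 0.05, against 10.7% of all genes. The differences ran between -0.10 and 0.16 on the log2 scale with a median of 0.00. The 95% interval of every member lay between -0.21 and 0.27, and a p that misses the threshold does not show that the herbicides act alike. The highest were Nhp2, at 0.16 with an interval from 0.05 to 0.27 (adjusted p = 0.374), and Gar1, at 0.11 from 0.01 to 0.21 (adjusted p = 0.449). The lowest was Rrp9, at -0.10 from -0.21 to 0.00 (adjusted p = 0.478). Diquat and paraquat arrays did not overlap in 4 of 39 members, against 10.5% of all genes: diquat was higher in 3 (5.18% of all genes) and lower in 1 (5.36%).

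The counts moved when single arrays were left out. With diquat, 9 members were called without control array 1 and 7 without control array 2, against 14 with all arrays. With paraquat, 5 were called without paraquat array 3, against 10. The share of all genes called higher was 2.76%, 2.27% and 1.52% in those fits. Gnl3, Wdr43, Utp4, Utp15 and Nop2 stayed called with each herbicide whichever of the 9 arrays was left out, and Noc3l did so with diquat. The call of Myc with diquat held in all 9 omissions but was lost when only diquat and control arrays were fitted (limma adjusted p = 0.0557), as were those of Npm1, Mybbp1a, Wdr75, Heatr1 and Rrp12. With paraquat the Myc call was lost without paraquat array 3. The calls of Polr1a and Wdr12 with diquat were lost without control array 2, and that of Rrp12 without paraquat array 3 or any control array. With paraquat, the call of Polr1a was lost without paraquat array 3 or any control array and after centring the arrays (limma adjusted p = 0.0598), that of Mybbp1a without paraquat array 2 or 3 or control array 3, that of Noc2l without paraquat array 2 or 3, and that of Rrp9 without paraquat array 3. The calls of Heatr1, Mybbp1a, Npm1 and Wdr75 with diquat were each lost in 6 or more of the 9 omissions, and that of Wdr75 also after quantile normalization.

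Several features were measured for 4 of the 39 members, and these did not always give the same size of change. For Ppan, which acts in large subunit assembly, the brighter feature gave log2FC of 0.11 with diquat and 0.12 with paraquat and was not called. Its other feature read 9.01, 9.43 and 9.42 with diquat and 9.26, 9.29 and 9.22 with paraquat, against 8.68, 8.76 and 8.87 in controls. That feature rose by 0.52 ± 0.10 with diquat (adjusted p = 0.0229) and 0.49 ± 0.10 with paraquat (SE; adjusted p = 0.0365) in a fit over all 34472 features. When the mean of a gene's features was fitted instead, Ppan was called with diquat (limma adjusted p = 0.0102) and with paraquat (adjusted p = 0.0142). For Rrs1 the features gave 0.07 and 0.24 with diquat and 0.16 and 0.16 with paraquat, none called. For Npm1 the brighter feature gave 0.16 with diquat and 0.11 with paraquat, and the dimmer 0.28 and 0.21. Only the brighter was called, with diquat (limma adjusted p = 0.0471 in that fit, against 0.115 for the dimmer). For Nop56 the dimmest of 3 features read 5.19, 5.31 and 6.48 with diquat, so its log2FC of 0.68 rested on diquat array 3 and it was not called (adjusted p = 0.246).

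Other genes of ribosome production were counted from further lists in the same fit. All counts from these lists stand beside 4.13% of all genes called higher and 2.89% lower with diquat. With paraquat these shares were 2.33% and 2.24%. Among the 7784 brighter genes, 9.82% were called higher with diquat and 5.78% with paraquat. An unadjusted p under 0.05 was found in 21.6% of all genes with diquat and 15% with paraquat. Small subunit processome factors outside the members rose in 9 of 33 cases with diquat and in 6 of 33 with paraquat, and 0 fell, with medians of 0.14 and 0.09. Pwp2, a subunit of the UTP-B complex, was higher by 0.39 and 0.38, Esf1 by 0.33 and 0.32, and the U3 protein gene Mphosph10 by 0.22 and 0.31. Calls of Esf1 and Mphosph10 with diquat were lost without control array 2 or 3, that of Mphosph10 in 6 omissions in all, and that of Esf1 with paraquat in 5 of 9. Other large subunit factors rose in 8 of 45 cases with diquat and in 6 of 45 with paraquat, and 0 fell, with medians of 0.12 and 0.10. Sdad1, whose yeast counterpart acts in large subunit export, was higher by 0.49 and 0.41, the ATPase gene Mdn1 by 0.46 and 0.24, and the GTPase gene Gtpbp4 by 0.37 and 0.33. The call of Mdn1 with paraquat was lost in 6 of the 9 omissions of 1 array, among them each control array.

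Export and late maturation genes had the highest share of calls with diquat among these lists, 6 of 14, with 3 of 14 called with paraquat and medians of 0.19 and 0.09. The kinase gene Riok3 rose by 0.38 and 0.27, Sbds, whose human counterpart is mutated in Shwachman-Diamond syndrome, by 0.37 and 0.19, and the methyltransferase gene Dimt1 had 0.38, called with diquat, and 0.27, not called with paraquat (adjusted p = 0.0514). The call of Sbds with paraquat was lost without any 1 of the paraquat arrays, without control array 1 or 2, and after centring the arrays. Of snoRNP assembly genes, 2 of 13 rose with diquat (Shq1 by 0.39 and Znhit6 by 0.22) and 0 of 13 passed with paraquat in limma (3 at an unadjusted p under 0.05). The call of Shq1 was lost without control array 2 or 3, and that of Znhit6 without diquat array 1 or 2 or control array 1 or 2.

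Further RNA polymerase I genes gave 3 calls of 14 with diquat and 1 with paraquat, all higher. Twistnb, also known as Polr1f, rose by 0.38 with diquat and 0.29 with paraquat, and Taf1a and Taf1b of the promoter selectivity factor rose by 0.34 and 0.30 with diquat and had 0.13 and 0.10 with paraquat. RNA polymerase III genes were mixed: 5 of 20 rose and 3 fell with diquat, and 2 rose and 1 fell with paraquat. Polr3d, a polymerase III subunit gene, rose by 0.50 and 0.47 and Bdp1, a subunit gene of its initiation factor, by 0.23 with diquat, while Gtf3c6, a subunit gene of another of its factors, fell by 0.32 with diquat and by 0.45 with paraquat. The Gtf3c6 call with diquat was lost in 6 of 9 omissions and after centring, and that with paraquat without control array 2. Exosome genes, for the nuclease that trims ribosomal RNA, gave 0 calls of 12 with each herbicide in limma (4 and 2 at an unadjusted p under 0.05), and Exosc8 had the largest change, -0.18 with each.

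The protein components of the ribosome had lower medians than the members. Cytosolic ribosomal protein genes had medians of 0.06 with diquat and 0.05 with paraquat over 59 measured, with 2 rises with diquat (Rps9 by 0.25 and Rps19 by 0.13) and 0 calls with paraquat in limma (11 at an unadjusted p under 0.05). The share that rose with diquat, 3.39%, was below the 4.13% of all genes called higher. The Rps19 call was lost in each of the 9 omissions of 1 array. Many of these genes have processed pseudogenes, so their features may read several loci, and 20 of 79 listed had no feature with a single symbol. Mitochondrial ribosomal protein genes had medians of -0.00 and -0.03 over 70 measured, with 2 falls with diquat (2.86%, against 2.89% of all genes called lower) and 3 with paraquat (4.29%, against 2.24%). Mrpl50 fell by 0.32 with diquat and by 0.33 with paraquat, Mrpl18 fell by 0.23 and by 0.26, and Mrpl51 fell by 0.20 with paraquat. These list medians were not tested against one another.

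**Figure D5:**
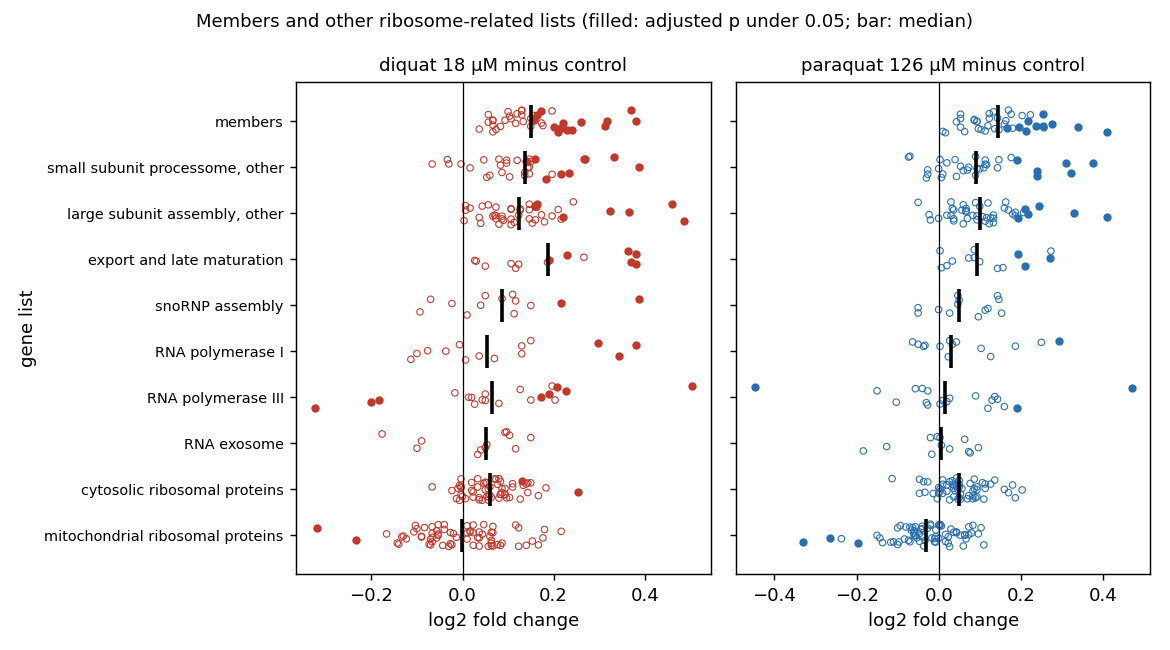
Log2 fold change against control of each gene (points, filled where the adjusted p was under 0.05; vertical jitter has no meaning) in the 39 members and 9 further lists, for diquat (left) and paraquat (right), with the median as a black bar. Medians of the members lie at 0.15 and 0.14, those of cytosolic ribosomal proteins at 0.06 and 0.05, and those of mitochondrial ribosomal proteins near 0.

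Genes of the MYC network outside Myc itself gave 1 rise and 2 falls of 12 with diquat and 1 of each with paraquat. Over all genes, 4.13% were called higher and 2.89% lower with diquat, and 2.33% and 2.24% with paraquat. Among the 7784 brighter genes these shares were 9.82% and 6.01% with diquat, and 5.78% and 4.95% with paraquat. Mxd1, which competes with MYC for its partner MAX, rose by 0.23 with diquat and 0.30 with paraquat, and its diquat call was lost without control array 2. Mlxipl, the carbohydrate-response factor ChREBP, fell by 0.37 with diquat and by 0.36 with paraquat. Both of its calls were lost without control array 1 or 3, and the paraquat call also without paraquat array 2 or 3. Mxd3 fell by 0.19 with diquat, a call lost in 7 of the 9 omissions and after centring or quantile normalization. Max, the MYC partner, had log2FC of 0.12 and 0.10 and did not pass. Purine and pyrimidine synthesis genes, another group with known MYC targets, gave 1 fall of 17 with diquat (Ctps, by 0.14, lost in 8 of 9 omissions and after centring) and 0 calls with paraquat in limma (3 at an unadjusted p under 0.05), with medians of 0.00 and -0.03.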

How the data were processed

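Biotin-labelled RNA from 9 samples was run on Affymetrix whole-transcript mouse arrays, per the labels. The authors deposited log2 values, made with Affymetrix Expression Console 1.1 and RMA per the submitters' processing notes. Their settings and the genome build are not given in the sources used. Both the groups and the array numbers were read from titles. For arrays 2 and 3 of each herbicide, another label field gives the replicate as 1. That conflict was not resolved, so the numbering of these arrays is uncertain, as is any check that uses it. Whether these arrays come from separate cultures is not known. No detection calls were used, so a dim value may be background, and precision rests on 3 arrays a group. Genes were named from features with 1 symbol in the platform annotation, taking the feature with the highest mean.

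All 22180 genes were fitted in limma 3.58.1 (R 4.3.3) with 1 mean per group, no covariates and 1 spread shared by the 9 arrays. P-values were Benjamini-Hochberg adjusted over all genes, with a threshold of 0.05, and the code was tested on simulated data. The members, the gene lists and the rule for naming genes were chosen with earlier results of these data known. By that rule, values on every array are given for the 14 called members with the largest change, Myc among them, and the 2 lowest per herbicide (Ncl tied with Pes1), and up to 3 called genes are named per list. Polr1a on every array, the extra features of Ppan, Npm1 and Nop56, and Max were added after their values were seen. Alternatives were a replicate block, another prior, a filter on dim genes, scalings, other feature rules, fewer groups, array weights, a fold threshold and leaving out each array.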

Additional observations from a re-analysis of the deposited data

How the results depend on the processing

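Leaving out 1 array gave 7 to 17 members called with diquat (14 with all arrays), 5 to 14 with paraquat (10) and 0 between the herbicides, with member scores from 0.138 to 0.177 for diquat and from 0.141 to 0.160 for paraquat. In these fits the log2 fold change with paraquat ran from -0.0217 to 0.0367 for Gar1 (-0.0033 without paraquat replicate 1 or 2, -0.0217 without control replicate 2), from -0.01 to 0.0417 for Nhp2 (lowest without control replicate 1) and from -0.02 to 0.06 for the endothelial marker Cdh5 (lowest without paraquat replicate 2), none of them called. Fitting only the groups compared gave 8 members called with diquat, and array weights gave 17 with paraquat; the cause was not tested. A test against a fold of 1.2, which asks for a larger change, called 0 with each herbicide (27 members had an unadjusted p under 0.05 in the ordinary limma test). With the replicate number of the titles as a block, 10 members were called with diquat, 12 with paraquat and 0 between them. In that fit 3.77%, 2.12% and 0% of all genes were called higher. Noc3l and Wdr12, called with diquat alone in the main fit, also passed with paraquat there. Correlations of deviations ran between -0.19 and 0.20 for samples of the same number, and between -0.33 and 0.28 for different numbers. With 3 arrays a group and numbering that rests on the titles, this check cannot tell whether the numbers mark a shared culture or day. Over all genes, 1558 were called with diquat, against 959 with only the groups compared, 117 with the fold of 1.2 and 802 to 1908 with 1 array left out. With paraquat 1014 were called, against 1623 with array weights, 95 with the fold of 1.2 and 574 to 1197 with 1 array left out. The number of arrays limits what can be detected: the SE of a member's change was 0.03 to 0.07.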
